A study of Mus musculus with 16 samples.

Results

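The fatty acid desaturases and elongases described here are 10 genes, *Scd1*, *Scd2*, *Fads1*, *Fads2*, *Fads3*, *Elovl1*, *Elovl2*, *Elovl3*, *Elovl5* and *Elovl6*, chosen by their symbols from the 56832 genes of the deposited liver table. They comprise 5 desaturases and 5 elongases, and all 10 passed the minimum mean expression that left 15128 genes for testing. Liver RNA came from 16 adult mice, with 4 libraries per genotype, taken 3 weeks after AAV-TBG-Cre had been injected into the tail vein, which delivers Cre recombinase under a promoter active in hepatocytes. Libraries labelled Gclc L-KO came from *Gclc* f/f mice, those labelled Nrf2 L-KO from *Nrf2* f/f mice, those labelled L-DKO from mice with both floxed genes, and those labelled WT from *Gclc* wt/wt mice. All 4 groups received the virus, so the WT livers also carry Cre, and liver cells other than hepatocytes keep both genes. The study deletes *Gclc*, the catalytic subunit gene of glutamate-cysteine ligase, the enzyme that begins glutathione synthesis, and *Nrf2* (*Nfe2l2*), the transcription factor that drives antioxidant genes, to ask what each contributes to the liver's lipid program.

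Desaturases place double bonds into fatty acyl chains and elongases lengthen those chains by adding carbon units from malonyl-CoA. SCD enzymes make monounsaturated fatty acids from the saturated products of fatty acid synthase, a step needed for triglyceride storage. FADS2, ELOVL5, FADS1 and ELOVL2 work in turn to convert the essential fatty acids of the diet into long polyunsaturated ones, whereas ELOVL6 extends palmitate. In liver many of these genes are driven by the sterol-regulated factor SREBP-1c, and NRF2 is known for its own target genes in antioxidant defense and drug metabolism.

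Values are rlog values, that is, read counts per gene that were scaled between libraries, put on a log2 scale and shrunken toward the mean of the gene. They are not adjusted for transcript length, so they compare 1 gene across livers and not different genes with each other. Changes are log2 fold changes from a limma fit over all 15128 genes, given with their standard error (SE) and the Benjamini-Hochberg adjusted p over all genes, and a gene is said to have risen or fallen only where the adjusted p is under 0.05. The medians of the 16 libraries ran from 8.33 to 8.38, and the read depth behind the values is unknown.

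The labels were checked first on the targeted genes. *Gclc* averaged 13.43 in libraries labelled Gclc L-KO and 13.22 in WT, a log2 fold change of 0.21 (adjusted p = 0.535, limma), so its gene-level value does not bear out that label. In L-DKO it averaged 11.47, which is 1.75 below WT on the log2 scale (adjusted p = 9.72e-04). *Nfe2l2* was not lower in either genotype with the floxed *Nrf2* allele, so its gene-level value does not bear out those labels. Its log2 fold change against WT was 0.62 in Nrf2 L-KO, not past the threshold, and 1.20 in L-DKO, where it rose past the threshold. A value per gene adds up reads over the whole transcript, so a deleted exon need not lower it. Whether this accounts for the values of *Gclc* and *Nfe2l2* was not tested. *Nqo1*, the standard NRF2 target gene, rose by 3.88 in Gclc L-KO against WT (adjusted p = 1.50e-06, limma), and L-DKO against Gclc L-KO gave -3.88 (adjusted p = 1.50e-06). In Nrf2 L-KO *Nqo1* had 8.28, 8.35, 7.53 and 7.35, against 8.81, 9.16, 8.31 and 8.05 in WT. The ranges overlapped, and *Nqo1* did not pass the threshold there. All group names below are the libraries' labels. Replicates 1 and 2 of every genotype had *Xist* values from 14.10 to 14.65 and replicates 3 and 4 from 7.95 to 8.91, the pattern of female and male mice, although the labels do not give the sex. Results that differ between these replicate pairs are therefore shown for each pair.

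Of the 10 genes, 6 have a promoter entry in RefSeq (build GRCm38.p6), which covers 250 bases before and 50 bases after the start of transcription, and 8 windows matched in all. *Scd1*, *Scd2*, *Fads1* and *Elovl3* had no entry. The windows of *Elovl5*, *Fads2* and *Elovl2*, which moved together in the libraries below, are shown with that of *Fads3*, the neighbor of *Fads2*, which did not. They were searched on both strands for the sterol response element (ATCAC, any base, then CCAC), the E-box CACGTG, the NF-Y box CCAAT, the LXR element (AGGTCA, any 4 bases, then AGGTCA), the PPAR element (AGGTCA, any base, then AGGTCA) and the antioxidant response element core (TGAC, any 3 bases, then GC). The LXR and PPAR elements are built from the same letters. Capitals mark the matches, and a window is printed 5′ to 3′ on the strand of its gene.
Elovl5 (chr9:77917115-77917414, plus strand): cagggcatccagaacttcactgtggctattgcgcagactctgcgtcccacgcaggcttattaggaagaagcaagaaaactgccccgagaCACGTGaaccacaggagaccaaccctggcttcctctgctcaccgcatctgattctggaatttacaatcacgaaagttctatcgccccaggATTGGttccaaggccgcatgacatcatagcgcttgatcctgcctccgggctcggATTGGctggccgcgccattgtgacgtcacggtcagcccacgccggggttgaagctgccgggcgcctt
Fads2 (chr19:10101454-10101753, minus strand): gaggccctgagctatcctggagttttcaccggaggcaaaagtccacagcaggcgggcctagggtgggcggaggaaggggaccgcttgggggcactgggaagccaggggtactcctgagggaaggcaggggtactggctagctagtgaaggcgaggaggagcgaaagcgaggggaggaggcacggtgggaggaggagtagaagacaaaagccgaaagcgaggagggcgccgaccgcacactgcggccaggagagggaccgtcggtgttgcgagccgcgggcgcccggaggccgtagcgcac
Elovl2 (chr13:41220354-41220653, minus strand): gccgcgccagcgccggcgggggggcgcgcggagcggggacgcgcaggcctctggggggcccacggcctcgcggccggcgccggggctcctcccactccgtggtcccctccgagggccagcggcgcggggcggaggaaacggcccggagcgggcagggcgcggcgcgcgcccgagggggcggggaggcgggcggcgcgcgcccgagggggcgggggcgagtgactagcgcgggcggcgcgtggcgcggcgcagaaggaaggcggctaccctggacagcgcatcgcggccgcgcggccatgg
Fads3 (chr19:10041298-10041597, plus strand): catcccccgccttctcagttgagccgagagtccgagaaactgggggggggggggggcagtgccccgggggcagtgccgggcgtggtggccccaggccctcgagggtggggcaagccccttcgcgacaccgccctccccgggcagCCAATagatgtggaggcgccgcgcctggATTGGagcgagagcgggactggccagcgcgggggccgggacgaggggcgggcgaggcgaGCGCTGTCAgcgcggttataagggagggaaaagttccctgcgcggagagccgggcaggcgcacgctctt
The *Elovl5* window held CACGTG at positions -161 to -156 from the start site and CCAAT on the opposite strand at -71 to -67 and -17 to -13. The *Fads3* window held CCAAT at -106 to -102, on the opposite strand at -78 to -74, and the antioxidant response element core on the opposite strand at -19 to -11. Window 1 of *Elovl1*, not shown, held CCAAT at -35 to -31. Window 2 of *Elovl1* and the windows of *Fads2*, *Elovl2* and *Elovl6* held none of the 6 motifs. Among all 32851 windows of 300 bases, 37.4% held CCAAT, 12.4% the antioxidant response element core, 7.15% CACGTG, 0.234% the sterol response element, 0.0396% the PPAR element and 0.0152% the LXR element. These matches describe the letters only, and 84.7% of the *Elovl2* window is G or C.

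In Gclc L-KO livers, 6 of the 10 genes fell against WT and 0 rose, whereas 12.4% of all tested genes fell and 10.6% rose. The genes that fell were *Scd1*, *Fads1*, *Fads2*, *Elovl2*, *Elovl5* and *Elovl6*, which span both the monounsaturated and the polyunsaturated branch. The median log2 fold change of the 10 genes was -0.79, against 0.00 for all tested genes. *Scd2*, *Fads3*, *Elovl1* and *Elovl3* did not pass the test over the 4 libraries of each genotype. In 5 of the 10 genes every Gclc L-KO library lay below every WT library, which held for 13.3% of all tested genes, and in *Scd2* every Gclc L-KO library lay above, which also held for 13.3%. In bulk tissue, fewer cells of a type and less RNA per cell cannot be told apart.

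**Figure D1:**
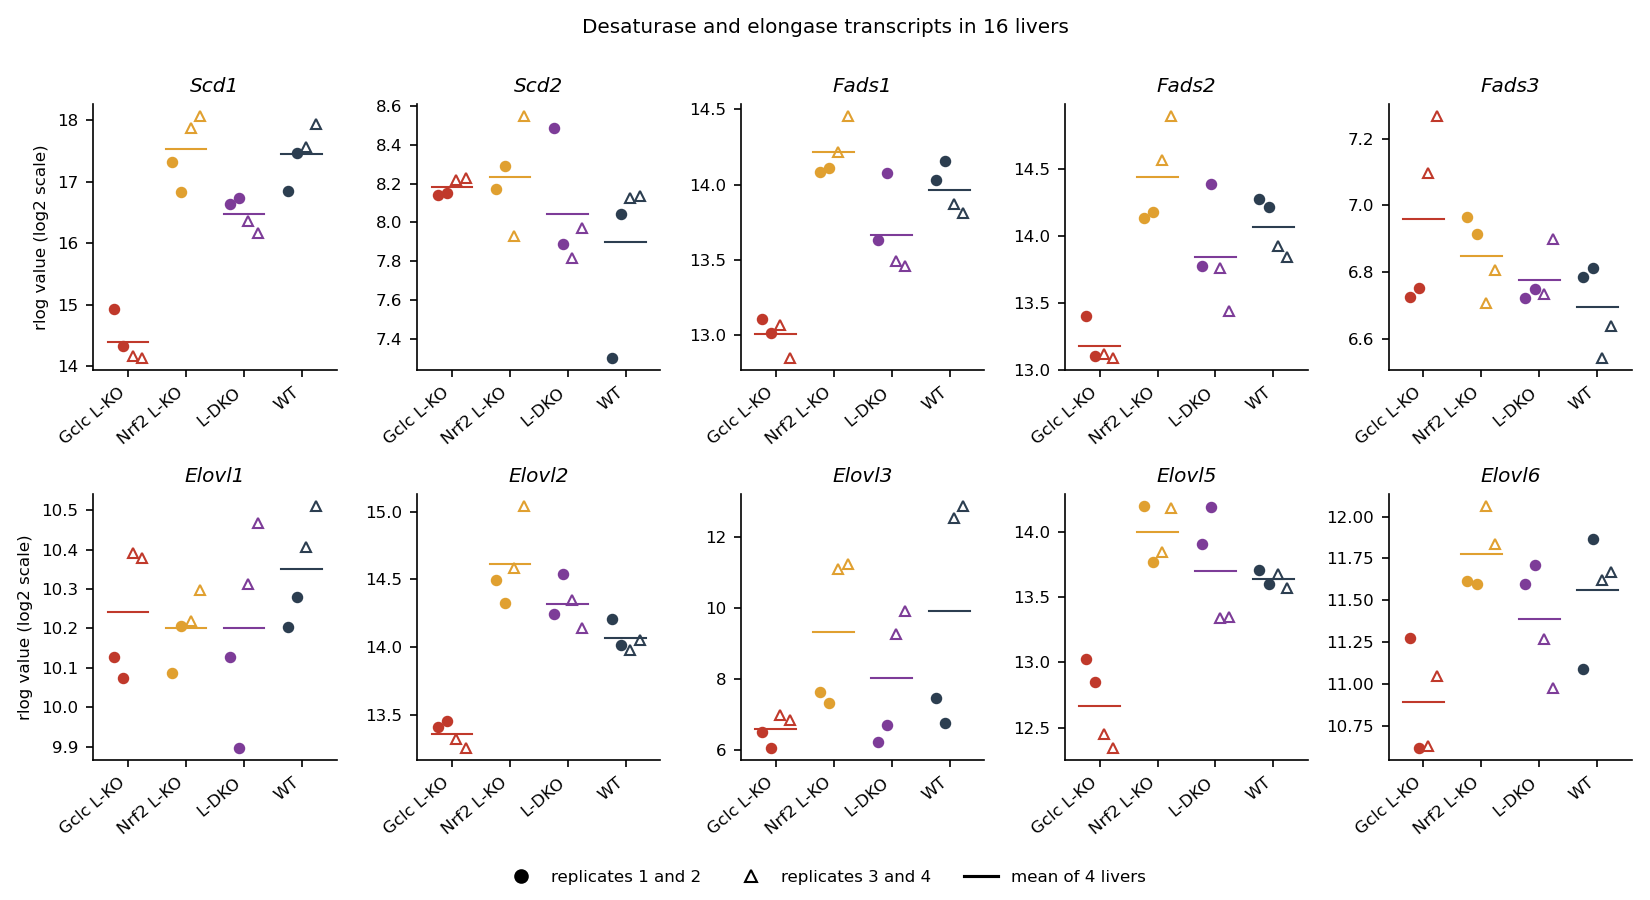
rlog values (log2 scale, vertical axes, a separate scale per panel) of the 10 genes in 16 livers, grouped by genotype, with filled circles for replicates 1 and 2, open triangles for replicates 3 and 4 and a line at the mean of 4 libraries. *Scd1* lies between 14.14 and 14.93 in Gclc L-KO and between 16.84 and 17.94 in WT, and the replicate pairs of *Elovl3* lie farthest apart in WT and closest in Gclc L-KO.

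*Scd1*, the main stearoyl-CoA desaturase of adult liver, had the lowest *p* and the largest called change. Its rlog values were 14.93, 14.34, 14.16 and 14.14 in Gclc L-KO livers, against 16.84, 17.47, 17.56 and 17.94 in WT livers. All 4 Gclc L-KO libraries lay below all WT libraries, and the means were 14.39 ± 0.37 in Gclc L-KO and 17.45 ± 0.45 in WT (SD, n = 4 each). The log2 fold change was -3.06 (SE 0.29, adjusted p = 1.13e-05, limma), or 0.120 times the WT level on the linear scale, and 0.119% of all tested genes had a lower one. Nrf2 L-KO livers gave 17.32, 16.84, 17.87 and 18.06, which overlapped the WT values, and L-DKO livers gave 16.64, 16.74, 16.36 and 16.16, which lay between the Gclc L-KO and the WT libraries without overlap with either. Gclc L-KO was thus the lowest genotype and L-DKO the next, and Nrf2 L-KO and WT did not differ beyond their spread (log2 fold change 0.07, 95% interval -0.54 to 0.69).

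*Scd2*, the isoform that prevails in brain and in newborn animals, did not follow *Scd1*. It had 8.14, 8.15, 8.22 and 8.23 in Gclc L-KO livers, against 7.30, 8.04, 8.12 and 8.14 in WT livers. The Gclc L-KO libraries sat just above the WT libraries, with WT replicate 1 standing low. The log2 fold change was 0.28 (95% interval -0.12 to 0.68, adjusted p = 0.292, limma), and without WT replicate 1 it was 0.08. No comparison between genotypes passed the test for *Scd2*, and the remaining isoforms *Scd3* and *Scd4* lay under the minimum expression, with mean rlog values of -0.02 and 0.50.

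*Fads1* and *Fads2*, which encode the desaturases of polyunsaturated fatty acids, fell by similar amounts in Gclc L-KO. *Fads1* had 13.11, 13.01, 13.07 and 12.85 in Gclc L-KO livers, against 14.03, 14.16, 13.87 and 13.81 in WT livers. *Fads2* had 13.40, 13.10, 13.12 and 13.09 in Gclc L-KO livers, against 14.28, 14.21, 13.93 and 13.84 in WT livers. The libraries of the 2 genotypes did not overlap for either gene, and the log2 fold changes were -0.96 for *Fads1* (SE 0.13, adjusted p = 3.00e-04, limma) and -0.89 for *Fads2* (SE 0.20, adjusted p = 0.00620, limma). In Nrf2 L-KO livers *Fads1* had 14.08, 14.11, 14.22 and 14.46 and in L-DKO livers 13.63, 14.08, 13.49 and 13.46. *Fads2* had 14.13, 14.18, 14.56 and 14.89 in Nrf2 L-KO livers and 13.78, 14.39, 13.76 and 13.44 in L-DKO livers. Gclc L-KO stood lowest for both genes, and neither Nrf2 L-KO nor L-DKO passed the test against WT.

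*Fads3*, which lies beside *Fads2* and whose product desaturates sphingoid bases rather than polyunsaturated fatty acids, did not fall with its neighbors. It had 6.73, 6.75, 7.10 and 7.27 in Gclc L-KO livers, against 6.78, 6.81, 6.54 and 6.64 in WT livers. The log2 fold change was 0.27 (95% interval 0.01 to 0.52, adjusted p = 0.123, limma), and the high values were in replicates 3 and 4. Within that pair *Fads3* rose by 0.59 in Gclc L-KO against WT (adjusted p = 0.00252, limma), and within replicates 1 and 2 the difference was -0.06 (adjusted p = 0.775). The difference between the pairs itself was 0.65 (SE 0.16, adjusted p = 0.0808, limma), so it is not shown that the pairs differ. Across Nrf2 L-KO and L-DKO libraries *Fads3* ranged from 6.71 to 6.96 and from 6.72 to 6.90.

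Among the elongases, *Elovl5* and *Elovl2*, which extend polyunsaturated chains, both fell in Gclc L-KO. *Elovl5* had 13.03, 12.85, 12.45 and 12.35 in Gclc L-KO livers, against 13.71, 13.60, 13.68 and 13.57 in WT livers, with no overlap and a log2 fold change of -0.97 (SE 0.19, adjusted p = 0.00307, limma). *Elovl2* had 13.41, 13.46, 13.32 and 13.26 in Gclc L-KO livers, against 14.21, 14.02, 13.98 and 14.06 in WT livers. The libraries were again fully separate, with a log2 fold change of -0.70 (SE 0.13, adjusted p = 0.00223, limma). In Nrf2 L-KO livers all 4 libraries exceeded WT for both genes, at 14.50, 14.32, 14.59 and 15.04 for *Elovl2* and at 14.20, 13.77, 13.85 and 14.18 for *Elovl5*, but neither passed the test (log2 fold changes 0.55, adjusted p = 0.224, and 0.36, adjusted p = 0.751, limma). L-DKO livers had 14.25, 14.54, 14.35 and 14.14 for *Elovl2* and 13.91, 14.19, 13.34 and 13.35 for *Elovl5*. Gclc L-KO was lowest for both genes, and the other genotypes did not differ from WT past the threshold.

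*Elovl6*, which extends palmitate to stearate, the preferred substrate of SCD1, also fell. It had 11.28, 10.62, 10.63 and 11.05 in Gclc L-KO livers, against 11.09, 11.86, 11.62 and 11.67 in WT livers. WT replicate 1 lay below the highest Gclc L-KO library, so the groups overlapped. The log2 fold change was -0.67 (SE 0.20, adjusted p = 0.0261, limma), and the call was lost without any 1 of Gclc L-KO replicate 2 or 3 or WT replicate 2, 3 or 4 (adjusted p 0.0559 to 0.0843 in those 5 fits). *Elovl6* ranged from 11.60 to 12.06 in Nrf2 L-KO and from 10.98 to 11.71 in L-DKO.

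*Elovl1*, which makes the very long saturated chains of sphingolipids, showed no difference between genotypes past the threshold. It ranged from 10.07 to 10.39 in Gclc L-KO, from 10.09 to 10.30 in Nrf2 L-KO, from 9.90 to 10.47 in L-DKO and from 10.20 to 10.51 in WT. For Gclc L-KO against WT the 95% interval of its log2 fold change was -0.35 to 0.14. *Elovl1* overlaps *Cdc20* on the opposite strand, and the strand setting of the counting is not given in the sources used here.

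**Figure D2:**
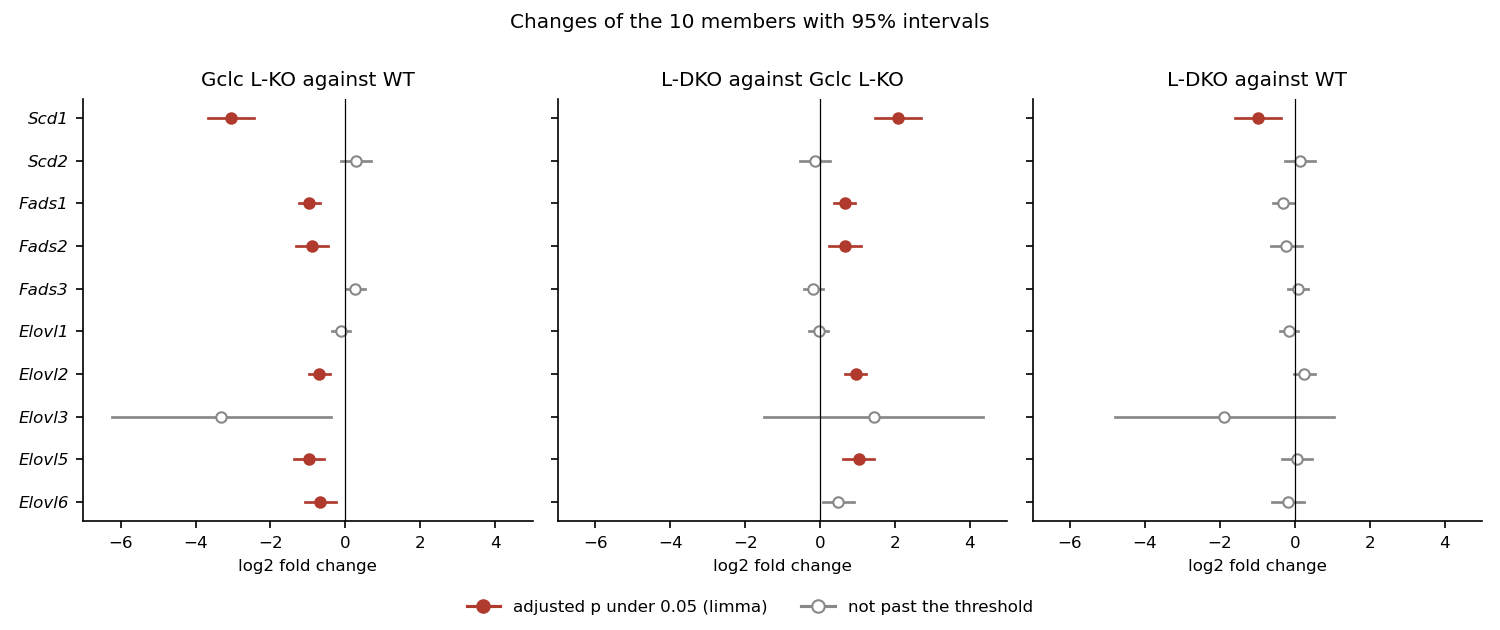
log2 fold change (horizontal axes, points) with its 95% interval (bars) of the 10 genes for Gclc L-KO against WT, L-DKO against Gclc L-KO and L-DKO against WT, with filled points for an adjusted p under 0.05 by limma. In Gclc L-KO against WT 6 points are filled and all lie left of 0, in L-DKO against Gclc L-KO 5 are filled and all lie right of 0, and *Elovl3* has by far the widest bars.

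In livers labelled Nrf2 L-KO no change passed the test over the 4 libraries of each genotype. Against WT, limma called 0 of the 10 genes, against 0.139% of all tested genes, and at an unadjusted p under 0.05 the count was 1 of 10, against 6.91% of all tested genes. That gene was *Elovl2*, and with array weights limma called it. The median log2 fold change of the 10 genes was 0.23, against 0.00 for all genes. Every Nrf2 L-KO library lay above every WT library in 2 genes, *Elovl2* and *Elovl5*, a pattern found in 1.83% of all tested genes. Within replicates 3 and 4 alone *Elovl2* rose by 0.80 (adjusted p = 0.0359, limma) and *Elovl3*, described below, fell. How many of all tested genes were called within a pair is not given for this comparison. Within replicates 1 and 2 *Elovl2* had 0.30 (adjusted p = 0.385), and the difference between the pairs was 0.50 (adjusted p = 0.346), so it is not shown that they differ.

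With both genes targeted, 7 of the 10 desaturases and elongases had a higher mean than with *Gclc* targeted alone. *Scd2*, *Fads3* and *Elovl1* had a lower mean. In L-DKO against Gclc L-KO, 5 of the 10 genes rose and 0 fell, whereas 3.84% of all tested genes rose and 4.8% fell. These were *Scd1* with a log2 fold change of 2.08 (SE 0.29, adjusted p = 4.64e-04, limma), *Elovl5* with 1.03 (SE 0.19, adjusted p = 0.00410), *Elovl2* with 0.96 (SE 0.13, adjusted p = 4.08e-04), *Fads2* with 0.66 (SE 0.20, adjusted p = 0.0492) and *Fads1* with 0.66 (SE 0.13, adjusted p = 0.00701). In 5 genes all 4 L-DKO libraries exceeded all Gclc L-KO libraries, against 6.88% of all tested genes. *Elovl6* had 0.49 (SE 0.20) and did not pass (adjusted p = 0.142). The median over the 10 genes was 0.66, against 0.00 for all genes. Within each replicate pair *Scd1*, *Elovl5*, *Elovl2* and *Fads1* were called, and *Fads2* was called in replicates 1 and 2 (0.83, adjusted p = 0.0339) and not in replicates 3 and 4 (0.50, adjusted p = 0.0842). Within replicates 3 and 4 *Fads3* was called lower (-0.36, adjusted p = 0.0458), and *Elovl3*, described below, higher. The share of all tested genes called within a pair is not given for this comparison. In a fit of replicates 1 and 2 alone *Fads1* and *Fads2* were not called. With both pairs together the *Fads2* call was lost without any 1 of Gclc L-KO replicates 2, 3 or 4 or L-DKO replicates 1, 2 or 3 (adjusted p 0.0804 to 0.126 in those 6 fits). This comparison shares the Gclc L-KO libraries with Gclc L-KO against WT, so the 2 comparisons are not independent.

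Against WT, *Scd1* fell in L-DKO over the 4 libraries of each genotype and none of the other 9 genes was called, where 6.17% of all tested genes fell and 3.79% rose. The log2 fold change was -0.98 (SE 0.29, adjusted p = 0.0463, limma), against -3.06 in Gclc L-KO, both measured from the same WT libraries. Within replicates 1 and 2 it was -0.47 (adjusted p = 0.302) and within replicates 3 and 4 -1.48 (adjusted p = 0.00179), and the difference between the pairs was -1.02 (SE 0.36, adjusted p = 0.125). The call was lost without any 1 of L-DKO replicates 1, 3 or 4 or WT replicates 2, 3 or 4 (log2 fold change -1.03 to -0.81, adjusted p 0.0646 to 0.132), and without L-DKO replicate 2 *Fads1* was called as well (-0.44, adjusted p = 0.0162). With quantile normalization *Scd1* had -0.43 (adjusted p = 0.284) and *Elovl2* was called higher (0.54, adjusted p = 0.0251). In the other called genes of Gclc L-KO the L-DKO value against WT was -0.30 for *Fads1*, -0.23 for *Fads2*, 0.25 for *Elovl2*, 0.06 for *Elovl5* and -0.18 for *Elovl6*, with adjusted p between 0.148 and 0.877, and quantile normalization turned *Fads1* and *Fads2* to 0.03 and 0.09. The 95% intervals reached from -0.58 to -0.02 for *Fads1* and from -0.35 to 0.47 for *Elovl5*.

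Set against Nrf2 L-KO, L-DKO livers were lower in 2 of the 10 genes, where 2.61% of all tested genes fell. *Scd1* had a log2 fold change of -1.05 (SE 0.29, adjusted p = 0.0490, limma) and *Fads1* of -0.55 (SE 0.13, adjusted p = 0.0295). Both calls were lost without any 1 of Nrf2 L-KO replicates 1, 3 or 4 or L-DKO replicates 1, 3 or 4 (adjusted p 0.0519 to 0.149 in those 12 fits). Within replicates 3 and 4 alone 7 of the 10 genes were called lower, against 11.5% of all tested genes, among them *Scd1* with -1.71 (adjusted p = 0.00137), *Fads2* -1.13 (adjusted p = 0.00214) and *Fads1* -0.86 (adjusted p = 0.00183), and within replicates 1 and 2 limma called 0 of the 10 (1 at an unadjusted p under 0.05, *Elovl3*), against 0.304% of all tested genes called lower. The difference between the pairs was called for none of the 10 genes, so it is not shown that the pairs differ. It was -1.32 for *Scd1* (adjusted p = 0.162, limma) and -1.06 for *Fads2* (adjusted p = 0.136).

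The interaction, that is the L-DKO change from Nrf2 L-KO minus the Gclc L-KO change from WT, was called for *Scd1* alone, where 0.225% of all tested genes had a positive call. Its value was 2.01 (SE 0.41, adjusted p = 0.0392, limma), and it lost the call in 13 of 16 fits that each left out 1 library (adjusted p 0.0534 to 0.108), with values between 1.78 and 2.21 over all 16. The fits that kept the call left out Gclc L-KO replicate 1, Nrf2 L-KO replicate 4 or WT replicate 1. For *Fads1*, *Elovl2* and *Elovl5* the interaction was 0.41, 0.41 and 0.67, with adjusted p values of 0.329, 0.319 and 0.273, so a difference in the effect of *Gclc* targeting with and without *Nrf2* is not shown for them.

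*Elovl3*, whose product elongates saturated and monounsaturated chains and which is known in mouse liver for its higher level in males, split by replicate pair. It had 6.50, 6.05, 6.97 and 6.84 in Gclc L-KO livers, 7.63, 7.31, 11.08 and 11.22 in Nrf2 L-KO livers, 6.22, 6.71, 9.26 and 9.90 in L-DKO livers and 7.46, 6.77, 12.51 and 12.86 in WT livers. Replicates 3 and 4 stood high in every genotype but Gclc L-KO, where all 4 libraries were low and replicates 3 and 4 lay just above replicates 1 and 2. Averaged over genotypes, replicates 3 and 4 exceeded replicates 1 and 2 by 3.25 (SE 0.14, adjusted p = 3.14e-08, limma), and by genotype the difference was 0.62 in Gclc L-KO (adjusted p = 0.189), 3.68 in Nrf2 L-KO (adjusted p = 1.42e-05), 3.11 in L-DKO (adjusted p = 9.96e-05) and 5.57 in WT (adjusted p = 3.19e-07).

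**Figure D3:**
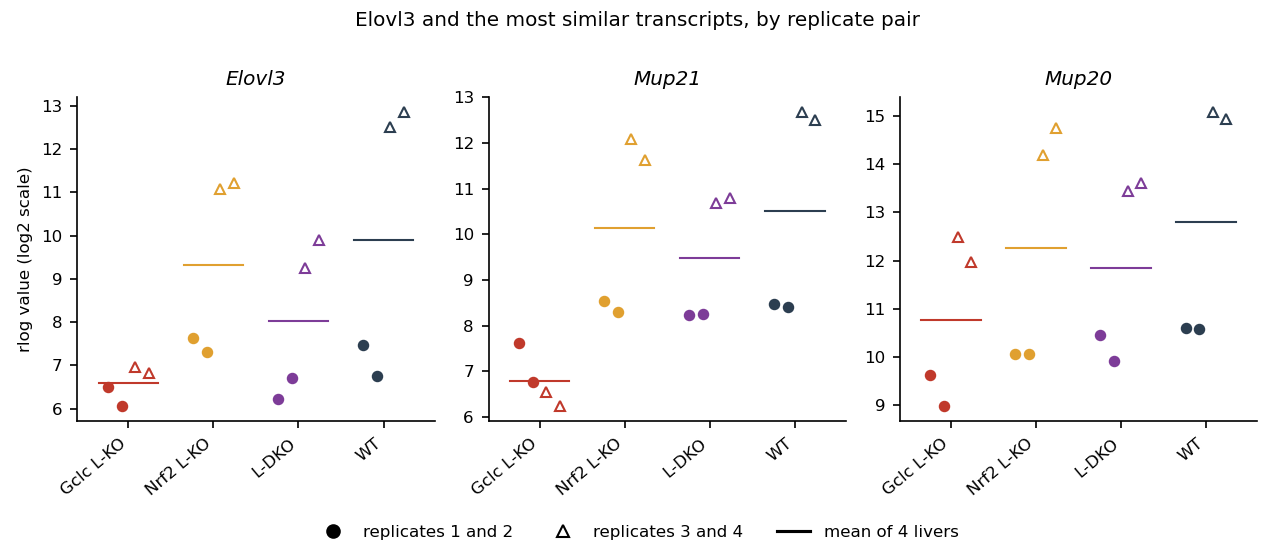
rlog values (log2 scale, vertical axes) of *Elovl3* and of *Mup21* and *Mup20* in 16 livers by genotype, with filled circles for replicates 1 and 2, open triangles for replicates 3 and 4 and a line at the mean of 4 libraries. In WT the triangles of *Elovl3* lie at 12.51 and 12.86 and the circles at 7.46 and 6.77, and in Gclc L-KO all 4 libraries lie between 6.05 and 6.97.

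The pooled comparison of *Elovl3* in Gclc L-KO against WT, with both pairs together, gave -3.31 (SE 1.37, adjusted p = 0.0932, limma) and was not called, and without WT replicate 2 it was called at -4.35 (adjusted p = 0.0384). It was also called at -3.31 in the fits that took the split into account, with the replicate block (adjusted p = 0.00688) or the replicate pair (adjusted p = 0.00290) as a term, at -3.38 with *Xist* as a covariate (adjusted p = 0.00243), and at -4.90 with array weights (adjusted p = 0.00700). Within replicates 3 and 4 *Elovl3* was lower than WT in each genotype, by a log2 fold change of -5.78 in Gclc L-KO (adjusted p = 3.74e-07), -1.53 in Nrf2 L-KO (adjusted p = 0.0267) and -3.10 in L-DKO (adjusted p = 6.72e-05). In that pair L-DKO exceeded Gclc L-KO by 2.68 (adjusted p = 9.16e-05) and lay below Nrf2 L-KO (-1.57, adjusted p = 0.00295). The 2 libraries of each genotype in replicates 3 and 4 thus ran in the order Gclc L-KO, L-DKO, Nrf2 L-KO and WT, lowest first, with each neighboring step past the threshold. Within replicates 1 and 2 none of these 5 comparisons was called (3 had an unadjusted p under 0.05), with -0.84 in Gclc L-KO against WT (adjusted p = 0.0737), 0.35 in Nrf2 L-KO against WT (adjusted p = 0.572) and -0.65 in L-DKO against WT (adjusted p = 0.189). The change differed between the pairs by -4.95 for Gclc L-KO against WT (adjusted p = 1.36e-04), a test that called 0.899% of all genes. It also differed by -2.46 for L-DKO against WT (adjusted p = 0.0150, 4.34% of all genes called) and by 2.49 for L-DKO against Gclc L-KO (adjusted p = 0.0358, 0.185% called), and the difference for Nrf2 L-KO against WT was -1.89 (adjusted p = 0.0935).

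The pairs also differed for *Elovl1*, by 0.25 (adjusted p = 0.00315, limma), and for *Elovl5*, by -0.31 (adjusted p = 0.0145), as replicates 3 and 4 minus replicates 1 and 2. These 2 genes and *Elovl3* make 3 of 10, against 21.4% of all tested genes. For 5 of the 6 genes that fell in Gclc L-KO the decrease was called in both pairs, where 5.37% of all tested genes fell in replicates 1 and 2 and 16.2% in replicates 3 and 4. The pairs are parts of the libraries by which the 6 genes were called, so this is not an independent test. The shares cover all tested genes, not only those called over both pairs. *Scd1* had a log2 fold change against WT of -2.52 in replicates 1 and 2 and -3.60 in replicates 3 and 4, *Fads1* -1.03 and -0.88, *Fads2* -0.99 and -0.78, *Elovl2* -0.68 and -0.73, and *Elovl5* -0.71 and -1.23, each called by limma in the fit with 8 means. In a fit of replicates 1 and 2 alone *Elovl5* was not called. *Elovl6* had -0.53 in replicates 1 and 2 (adjusted p = 0.196) and -0.81 in replicates 3 and 4 (adjusted p = 0.0296).

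Likeness of pattern over the 16 libraries was measured by the root mean square difference of values centered on the WT mean. The genes most like a desaturase or elongase were sought outside the set described here, so its members were not compared with each other. For *Elovl3* these were *Mup21* (0.757) and *Mup20* (1.08), major urinary protein genes, and *Gm50136* (1.16). *Mup21* had 7.61, 6.76, 6.54 and 6.23 in Gclc L-KO livers, against 8.47, 8.41, 12.68 and 12.49 in WT livers. *Mup20* kept its split in Gclc L-KO, with 9.62, 8.98, 12.49 and 11.97, against 10.59, 10.58, 15.08 and 14.93 in WT livers. Major urinary protein genes are near-identical copies that can share reads, so their values are uncertain. For *Scd1* the closest genes were the unnamed gene ENSMUSG00000120173 (0.478), the long noncoding RNA *Gm15998* (0.512) and *Cyp2c23* (0.525), an epoxygenase gene. For *Elovl5* they were *Amt* (0.196), of glycine cleavage, *Abca8b* (0.251) and *Pzp* (0.252). For *Fads2* they included *Cpn1* (0.256) and *Cfap20* (0.258).

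Genes of core fatty acid synthesis and its regulation were mostly lower in Gclc L-KO as well. Of 9 genes of core fatty acid synthesis, all tested, 7 fell and 1 rose in Gclc L-KO against WT, where 12.4% of all tested genes fell and 10.6% rose, with a median log2 fold change of -1.16 against 0.00 for all genes. *Acacb*, the acetyl-CoA carboxylase of the mitochondrial surface, had -1.76 (adjusted p = 0.00167, limma), fatty acid synthase *Fasn* -1.46 (adjusted p = 0.00181), *Thrsp* -1.40 (adjusted p = 0.00650) and ATP citrate lyase *Acly* -1.19 (adjusted p = 0.00161). The gene that rose was malic enzyme *Me1*, which supplies NADPH and is also known as an NRF2 target. In L-DKO against WT 5 of the 9 fell, against 6.17% of all tested genes, and in L-DKO against Gclc L-KO 0 rose and *Me1* fell (log2 fold change -0.52, adjusted p = 0.0219). For *Fasn* that last comparison gave 0.50 (adjusted p = 0.264), beside 2.08 for *Scd1*, and whether these differ was not tested.

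**Figure D4:**
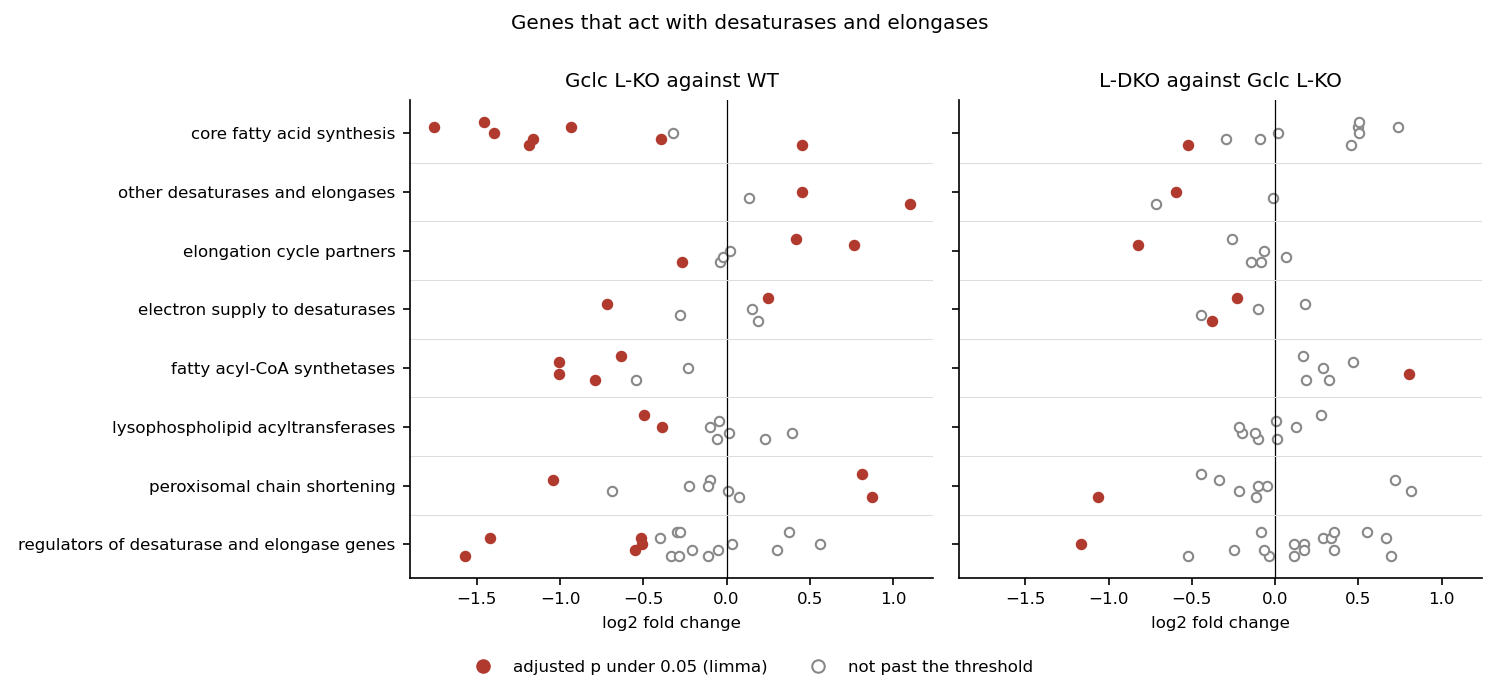
log2 fold change (horizontal axes, the same scale in both panels) of each tested gene in 8 lists around the desaturases and elongases, for Gclc L-KO against WT and L-DKO against Gclc L-KO, with filled points for an adjusted p under 0.05 by limma. In Gclc L-KO against WT 7 of the 9 genes of core fatty acid synthesis are filled left of 0, and in L-DKO against Gclc L-KO none of them is filled right of 0.

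The regulators of these genes moved in part. Of 17 tested regulators 5 fell in Gclc L-KO against WT and 0 rose, against 12.4% and 10.6% of all tested genes, with a median of -0.28. *Srebf1*, which encodes SREBP-1, had -1.57 (adjusted p = 0.00117, limma), *Insig1*, which retains SREBPs in the endoplasmic reticulum and is itself a SREBP target, -1.42 (adjusted p = 5.96e-04), *Srebf2* -0.55 (adjusted p = 0.00658) and the LXRα gene *Nr1h3* -0.52 (adjusted p = 0.00198). For L-DKO against Gclc L-KO, *Srebf1* had 0.69 (adjusted p = 0.122) and *Insig1* 0.67 (adjusted p = 0.0718), neither past the threshold. The only regulator called there, named after its values were seen, was *Pparg*, with -1.17 (adjusted p = 0.00203).

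Fatty acyl-CoA synthetases, which activate fatty acids for elongation, fell in 4 of 6 tested genes in Gclc L-KO against WT, against 12.4% of all tested genes, with a median of -0.71. *Acsl3* and *Acsl5* had -1.01 each (adjusted p = 1.01e-04 and 3.04e-04, limma), *Slc27a5* -0.79 (adjusted p = 0.0110) and *Slc27a2* -0.64 (adjusted p = 0.0226). *Acsl3* rose in L-DKO against Gclc L-KO, with 0.80 (adjusted p = 8.65e-04). Of 8 lysophospholipid acyltransferases, which place unsaturated chains into phospholipids, *Mboat1* (-0.49, adjusted p = 0.00888) and *Lpcat3* (-0.39, adjusted p = 0.0338) fell and 0 rose, beside the same 12.4% and 10.6% of all tested genes.

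Other partners moved in both directions, as did all tested genes (12.4% lower and 10.6% higher). Among 6 tested partners of the elongation cycle *Hacd3* (0.76, adjusted p = 6.68e-04, limma) and *Hacd4* (0.42, adjusted p = 0.0466), of the dehydratase step, rose in Gclc L-KO against WT, and the reductase gene *Tecr* fell (-0.27, adjusted p = 0.0263). Among 5 tested genes that supply electrons to desaturases, the cytochrome b5 reductase *Cyb5r3* fell (-0.72, adjusted p = 1.36e-04) and *Cyb5r4* rose (0.25, adjusted p = 0.00581). Of the 3 tested of 7 other desaturases and elongases, *Elovl7* (1.10, adjusted p = 0.0249) and the ceramide-pathway desaturase *Degs1* (0.45, adjusted p = 0.0144) rose. Of 9 genes of peroxisomal chain shortening 2 rose, among them *Ehhadh* (0.81, adjusted p = 0.0130), and 1 fell, *Scp2* (-1.04, adjusted p = 0.0415), which is near the share of all tested genes that fell. For L-DKO against Gclc L-KO, *Hacd3* had -0.82 (adjusted p = 6.21e-04) and *Degs1* -0.60 (adjusted p = 0.00620), opposite in sign to *Scd1*.

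The cell types of the samples were read from marker genes. Of 5 hepatocyte markers *Alb*, *Ttr*, *Apob* and *Cps1* were present in every library and *Tf* was not analysed here. Their summed level, as log2 of summed linear values, ranged from 20.08 to 21.13 in Gclc L-KO, from 21.52 to 21.79 in Nrf2 L-KO, from 21.02 to 21.78 in L-DKO and from 21.40 to 21.68 in WT. Of the 4 markers tested, *Cps1* fell in Gclc L-KO against WT (-1.67, adjusted p = 0.00149, limma), where 12.4% of all tested genes fell, and 3 were not called. Among those 3, *Alb* had -1.11 (adjusted p = 0.216) and 1 marker had a positive log2 fold change. The 6 Kupffer cell and macrophage markers summed to 13.53 to 14.01 in Gclc L-KO, 12.90 to 14.08 in Nrf2 L-KO, 13.24 to 13.87 in L-DKO and 12.72 to 13.19 in WT. Of these 6, 3 rose in Gclc L-KO against WT, *Cd5l*, *Adgre1* and *Clec4f*, where 10.6% of all tested genes rose. In the same comparison 1 of 5 liver endothelial markers rose. No tested marker of stellate cells, bile duct cells, lymphocytes, neutrophils or erythroid cells was called. Adipocyte markers, whose cells also express desaturases, summed to 6.21 to 8.95 in Gclc L-KO, 6.06 to 7.15 in Nrf2 L-KO, 6.42 to 8.39 in L-DKO and 6.17 to 7.35 in WT. The part of these shifts in the changes of the desaturases and elongases was not tested.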

How the data were processed

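Poly(A) RNA of 16 livers was sequenced by the authors with a stranded kit. According to the submitters' processing notes the tools were bcl2fastq 2.20.0, fastp, STAR 2.7.9a, featureCounts of Subread 2.0.1, DESeq2 1.34.0, R 3.5.1 and GRCm39. The deposited values are DESeq2 rlog values on a log2 scale, from -2.27 to 21.59, already scaled between libraries, and counts were not used here, so no count model was run. Columns of other samples numbered 0.

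Genes with a mean rlog of at least 3 were tested in 1 limma fit (limma 3.58.1 under R 4.3.3, moderated by eBayes along the trend of variance with mean) with 1 mean per genotype, two-sided, with Benjamini-Hochberg adjustment over 15128 genes and a threshold of 0.05. A fit with 8 means, genotype by replicate pair, gave values within and between pairs. The labels give no more than a replicate number, so p-values measure only the spread between these samples.

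Replicate numbers were not used as pairs. Alternatives were the filter, the trend, robust eBayes, scaling, array weights, covariates, subsets and leaving out each library. The 10 genes are all named, with up to 4 called genes per list of largest change. For *Scd1*, *Elovl5*, *Fads2* and *Elovl3* the 3 most similar genes outside the 10 were selected. The members and lists were chosen with earlier results of these data known. Promoter sequences are from RefSeq (GRCm38.p6). Figures were made in Python 3.11.15 (matplotlib 3.10.9). Some genes that the naming rule selects are not reported here.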

Additional observations from a re-analysis of the deposited data

Results flagged for a closer look

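In 40 groups of 4 libraries (10 genes in 4 genotypes), 3 held a library far from the other 3 by Dixon's test, where chance gives about 1 in 20 groups. *Scd2* had 7.30 in WT replicate 1, and the nearest WT library had 8.04. *Fads2* had 13.40 in Gclc L-KO replicate 1, and the nearest Gclc L-KO library had 13.12. *Fads3* had 6.90 in L-DKO replicate 4, and the nearest L-DKO library had 6.75.

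The change of *Elovl3* differed between replicates 3 and 4 and replicates 1 and 2 in 3 contrasts, by -4.95 for Gclc L-KO against WT (adjusted p = 1.36e-04, limma), by -2.46 for L-DKO against WT (adjusted p = 0.0150) and by 2.49 for L-DKO against Gclc L-KO (adjusted p = 0.0358). The contrasts share libraries, and each pair has 2 libraries per genotype.

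The effect of *Gclc* targeting on *Scd1* with and without *Nrf2* targeting differed by an interaction of 2.01 (adjusted p = 0.0392, limma). The call was lost in 13 of 16 fits without 1 library (1.78 to 2.21 over all 16), with no filter on low values (adjusted p = 0.0596), with the replicate block (adjusted p = 0.0602) and in replicates 1 and 2 only (2.13, adjusted p = 0.242).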

How the results depend on the processing

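Counts of the 10 genes called were compared across the alternatives, of which the replicate pair as a term, and every alternative for Gclc L-KO against Nrf2 L-KO, were chosen after seeing the data. For Gclc L-KO against WT (6 called) leaving out 1 library gave 5 to 6, and a required log2 fold change of at least 1 gave 1, *Scd1*. No filter on low values gave 5, and replicates 1 and 2 only gave 4, without *Elovl5* and *Elovl6*. Array weights and replicates 3 and 4 only gave 8 each, of which 1, *Fads3*, was higher. For L-DKO against Gclc L-KO (5 called) leaving out 1 library gave 4 to 5, the minimum change of 1 gave 2 and replicates 1 and 2 only gave 3. For Nrf2 L-KO against WT (0 called) array weights and replicates 3 and 4 only gave 1 each. For L-DKO against WT (1 called) leaving out 1 library gave 0 to 2, replicates 3 and 4 only gave 3, and no filter on low values, median centring, the replicate block, only the groups compared, replicates 1 and 2 only and the minimum change of 1 gave 0. For L-DKO against Nrf2 L-KO (2 called) leaving out 1 library gave 0 to 3, replicates 3 and 4 only gave 7, median centring, array weights, the replicate block and the minimum change of 1 gave 1, and no filter, quantile normalization, only the groups compared and replicates 1 and 2 only gave 0. For the interaction (1 called) leaving out 1 library gave 0 to 1, replicates 3 and 4 only gave 2, and no filter, the replicate block and replicates 1 and 2 only gave 0. No filter tests more genes and the subsets use fewer libraries, and for the other settings the cause was not tested. Correlations between genotypes were taken on each library's deviations from its genotype mean. The same replicate numbers correlated from -0.07 to 0.55, over 0.1 in 20 of 24 pairs and not in all, so the numbers were not taken to pair the libraries. Libraries of the same replicate pair (1 and 2, or 3 and 4) correlated above 0 in 45 of 48 cases and those of different pairs in 2 of 48. The deviations sum to 0 within a genotype, so these counts are not independent of each other. The replicate block called 7 genes in Gclc L-KO against WT and 4 in L-DKO against Gclc L-KO. Among the 1330 single values under an alternative 41 changed sign, none of them called. In replicates 1 and 2 only these were *Fads3* -0.059 (Gclc L-KO against WT), *Scd1* -0.075, *Fads2* -0.091 and *Elovl3* 0.35 (Nrf2 L-KO against WT), *Fads3* -0.061 and *Elovl6* 0.17 (L-DKO against WT), *Scd2* 0.043 (L-DKO against Gclc L-KO), *Elovl5* 0.065 and *Elovl6* 0.045 (L-DKO against Nrf2 L-KO) and *Elovl3* -0.17 (interaction). In replicates 3 and 4 only they were *Scd2* -0.24 and *Elovl5* -0.28 (L-DKO against WT), *Elovl1* 0.0057 (L-DKO against Gclc L-KO), *Fads3* 0.060 and *Elovl1* 0.13 (L-DKO against Nrf2 L-KO) and *Fads2* -0.35 and *Elovl6* -0.023 (interaction). With quantile normalization they were *Fads1* 0.027 and *Fads2* 0.094 (L-DKO against WT) and *Elovl1* 0.0081 (L-DKO against Gclc L-KO) and 0.021 (L-DKO against Nrf2 L-KO). Array weights gave *Scd1* -0.086 (Nrf2 L-KO against WT), and median centring gave *Elovl1* 0.0039 (L-DKO against Nrf2 L-KO). Leaving out 1 library, values ran from -0.13 to 0.30 for *Scd1* in Nrf2 L-KO against WT, from -1.63 to 0.40 for *Elovl3* in Nrf2 L-KO against WT, from -0.060 to 0.22 for *Scd2* in L-DKO against WT, from -0.11 to 0.18 for *Elovl5* in L-DKO against WT, from -0.13 to 0.060 for *Elovl1* in L-DKO against Gclc L-KO, then from -0.089 to 0.10 for *Elovl1* in L-DKO against Nrf2 L-KO. Quantile normalization also moved the share of calls that were higher from 38.0% to 49.2% in L-DKO against WT and from 50.4% to 64.9% in L-DKO against Nrf2 L-KO.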

Other observations

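The genes beside the desaturases and elongases were looked at after their own values had been seen. In the RefSeq gene order of GRCm38.p6 the coding gene next to *Elovl5* on chromosome 9 is *Gclc*, the floxed gene of the Gclc L-KO and L-DKO mice. Relative to WT, *Elovl5* had a log2 fold change of -0.97 in Gclc L-KO livers and of 0.06 in L-DKO livers, which carry the same floxed allele, while *Gclc* itself had 0.21 in Gclc L-KO livers and -1.75 in L-DKO livers. The other neighbors, *Klhl31* and *Gcm1*, lay under the minimum expression.

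In the cluster on chromosome 19 that runs *Rab3il1*, *Fads3*, *Fads2*, *Fads1*, *Fen1* and *Tmem258*, *Fads2* and *Fads1* fell in Gclc L-KO against WT and so did *Tmem258*, by a smaller log2 fold change of -0.36 (adjusted p = 0.0161, limma). *Fen1* had 0.24 (adjusted p = 0.393) and *Rab3il1* 0.12 (adjusted p = 0.493). *Gm35986*, an antisense gene that overlaps *Elovl6*, fell with it (-0.89, adjusted p = 0.00832), and its reads and those of *Elovl6* cannot be told apart unless the counting used strand. *Pitx3*, which overlaps *Elovl3* on the opposite strand, ranged from -0.21 to 0.04 in all libraries.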
